A study of Homo sapiens with 6 samples.

Results

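The genes that encode the proteins of the cytosolic ribosome were compared between A2780 CDK12 knock-out cells (KO) and their parental wild-type cells (WT). Members were chosen by name: protein-coding genes whose symbols begin with RPL or RPS followed by a number, together with RPLP0, RPLP1, RPLP2 and RPSA. This gave 77 of the 60483 genes listed, 46 of the large (60S) subunit and 31 of the small (40S) subunit. A further 24 protein-coding symbols that begin the same way were left out as S6 kinases, Y-linked or L-suffixed paralogs, read-through genes and a ribosomal protein binding protein. A2780 is an established human ovarian carcinoma line. CDK12 is a kinase that phosphorylates RNA polymerase II and takes part in mRNA processing. The 3 WT libraries came from A2780 cells with unedited CDK12, and the 3 KO libraries came from a single A2780 clone edited with CRISPR/Cas9 in exon 1 of CDK12. The clone was obtained by a further transfection of a heterozygous clone, so the genotype and the history of that clone cannot be told apart. No drug treatment is named in the labels of these samples. The labels do not say whether libraries of a group came from separate cultures, so p-values measure the spread between these libraries.

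Each cytosolic ribosome joins a small subunit, which reads the mRNA, to a large subunit, which forms the peptide bond. Each ribosomal protein is needed in about equal number per particle, yet the genes are scattered over nearly all chromosomes. In vertebrates most of their mRNAs begin with a C followed by an uninterrupted run of pyrimidines, the 5′ terminal oligopyrimidine (TOP) motif, through which mTOR signalling controls their translation together. The genome also carries many processed pseudogenes copied from these short, abundant mRNAs, and reads from a gene and from its copies can be hard to separate.

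The sequences around the annotated starts show this shared feature in members that moved in different directions. RefSeq windows (GRCh38.p14) were found for 62 of the 77 members. Each line below runs 5′ to 3′ on the gene's own strand, with 40 bases before the start and 20 from it, and capitals mark the pyrimidine run of at least 8 bases that lies within 3 bases of the start. RPS12 (chr6:132814529-132814588, plus strand), RPS7 (chr2:3575220-3575279, plus) and RPS16 (chr19:39435930-39435989, minus) had the largest falls. RPL29 (chr3:51995876-51995935, minus), RPS4X (chrX:72277229-72277288, minus) and RPS18 (chr6:33272035-33272094, plus) were among the largest rises. RPL11 (chr1:23691739-23691798, plus) was not called in either direction.
RPS12: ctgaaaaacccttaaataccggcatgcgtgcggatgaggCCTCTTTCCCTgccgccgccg
RPS7: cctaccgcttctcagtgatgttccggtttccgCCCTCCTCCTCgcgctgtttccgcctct
RPS16: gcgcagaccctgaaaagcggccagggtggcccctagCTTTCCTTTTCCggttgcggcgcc
RPL29: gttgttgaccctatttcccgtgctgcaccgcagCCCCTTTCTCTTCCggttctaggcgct
RPS4X: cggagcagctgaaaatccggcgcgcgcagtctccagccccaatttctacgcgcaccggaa
RPS18: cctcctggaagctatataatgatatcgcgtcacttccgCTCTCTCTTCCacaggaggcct
RPL11: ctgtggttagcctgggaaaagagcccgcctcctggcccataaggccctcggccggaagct

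A C at the annotated start followed by at least 4 pyrimidines was present in 42 of the 62 members (67.7%) and in 4.05% of 27195 promoters. It was present in 21 of the 33 matched members called higher in KO, in 3 of the 4 called lower and in 18 of the 25 not called. A pyrimidine run of at least 8 bases near the start was found in 44 members (71.0%) against 9.55% of promoters. RPS4X and RPL11 had no such run at the annotated start. Over the whole window of 300 bases, on both strands, the ETS-type string CCGGAAG was found in 21 members (33.9%) against 10.7% of promoters. The YY1-type string AAGATGGC was found in 6 members (9.68%) against 3.03%, and TATAAA in 5 (8.06%) against 12%. No string searched contains another. These matches describe the letters in the windows.

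RNA was measured by stranded, single-ended sequencing with reads of 75 bases. Totals ran from 11098400 (WT replicate 3) to 30899045 (WT replicate 2) reads counted on genes, so that 3 counts correspond to 0.10 to 0.270 CPM (each library's counts as a share of its TMM-scaled total). The edited gene, CDK12, was still counted in every library, at 103, 125 and 117 CPM in WT and 99.0, 93.0 and 102 CPM in KO (log2 fold change −0.23, SE 0.06, adjusted p = 8.2e-04 by edgeR). A count over the whole gene does not show whether an edited exon 1 is translated. Of the carcinoma and ovarian epithelial markers, 3 of 7 passed the filter on low counts, with 2 higher and 1 lower in KO. KRT18, a simple-epithelium keratin, was at 58.1 to 62.0 CPM in WT and 101 to 106 CPM in KO, and KRT8, its partner, was higher too (log2 fold change 0.56). EPCAM, an epithelial adhesion molecule, was lower (−0.53, adjusted p = 0.012). PAX8 reached at most 0.219 CPM and MUC16 at most 0.0365 CPM, so these markers of the tissue of origin were at or near 0. Of the blood, endothelial and fibroblast markers 4 of 8 passed, with 1 higher and 3 lower. The summed level of the list ran from 5139 to 5271 CPM in WT and from 2678 to 2812 CPM in KO. Nearly all of that sum came from COL1A2 (mean 4577 CPM in WT, 2623 CPM in KO) and COL1A1 (629 and 122 CPM). The collagen genes COL1A1 and COL1A2 were lower (−2.37 and −0.80), and DCN, a matrix proteoglycan, was lower and had 0 counts in all 3 KO libraries. VWF, an endothelial gene, went the other way, with 2, 7 and 3 counts in WT and 18, 22 and 10 in KO (2.00, past both of the study's thresholds), and PTPRC, CD3E, LYZ and PECAM1 were at or near 0 in both groups. The part of these shifts in the ribosomal protein result was not tested. All libraries came from A2780 cells or a clone of them, so these genes do not count cells of other types. Bulk RNA does not show how a change was spread over the cells of a culture.

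Ribosomal protein mRNAs shifted upward by small amounts in KO cells. At an adjusted p under 0.05 (edgeR quasi-likelihood test, Benjamini-Hochberg over 16198 genes), 38 of the 77 members were higher in KO, 5 were lower and 34 were not called. Among all genes tested the shares were 31.9% higher and 32.0% lower, against 49.4% and 6.49% of the members. The median log2 fold change was 0.11 over the members and 0.00 over all genes. The study also asked for a log2 fold change beyond 1 in either direction, which no member reached, whereas 8.30% of all genes passed both thresholds upward and 7.73% downward. That count was also 0 with voom/limma and with DESeq2. An unadjusted p from the same edgeR fit could not change it, because no member reached the fold threshold. Every member passed the filter on low counts. In 37 members all KO libraries lay above all WT libraries and in 4 all lay below, which is 48.1% and 5.19%, against 32.8% and 33.5% of all genes. Genes with as many reads, tested at or above 319 CPM without regard to length (the lower quartile of the members), gave 143 higher and 144 lower of 419, with a median of −0.01, and 57 of those genes were members.

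**Figure D1:**
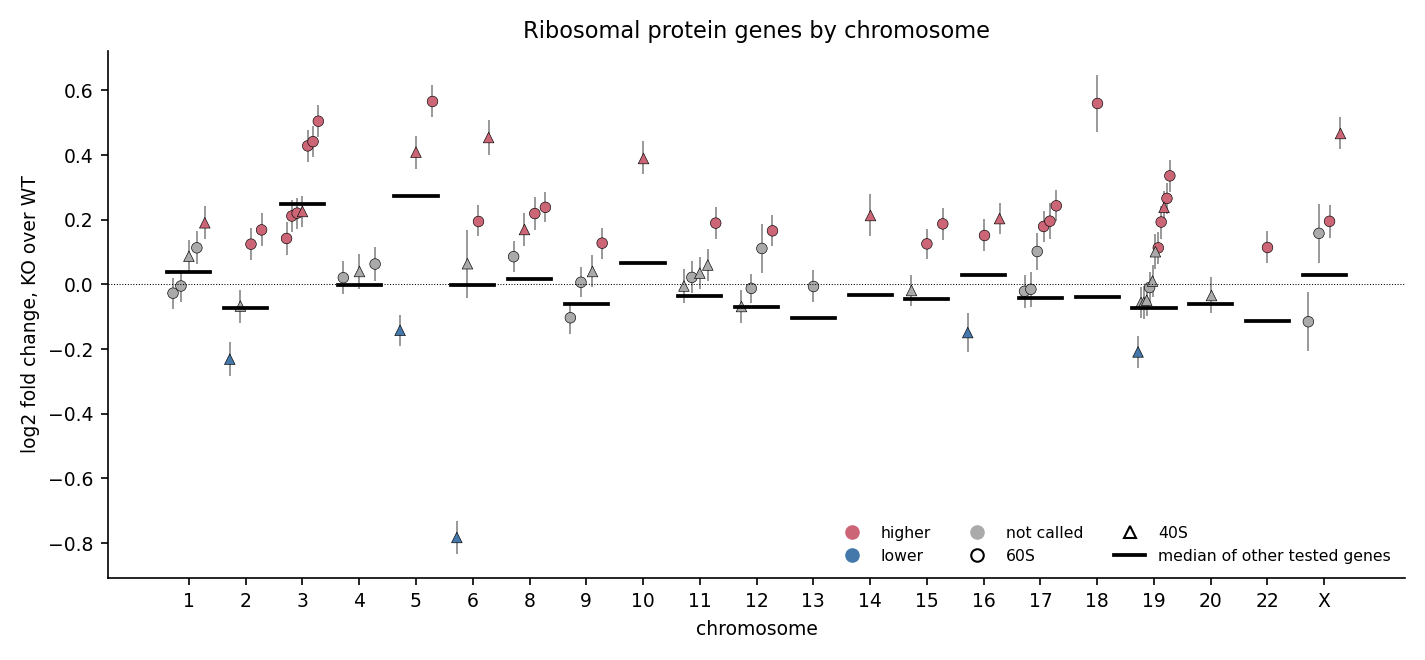
Log2 fold change (KO over WT, y axis) of the 77 ribosomal protein genes by chromosome (x axis), as circles for 60S and triangles for 40S, coloured by call, with bars of 1 SE. Black lines give the median of the other genes tested on the chromosome. The 7 genes of chromosome 3 all lie above 0 beside a line at 0.25, and RPS12 on chromosome 6 lies lowest, at −0.78.

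The whole pool can be seen in each library. The median member, on the log2 scale against its WT mean, was at 0.07, −0.04 and −0.02 in the WT libraries. It was at 0.08, 0.17 and 0.08 in the KO libraries, so WT replicate 1 lay close to KO replicates 1 and 3. Members took 3.90%, 3.56% and 3.72% of all counts in the WT libraries and 4.10%, 4.38% and 4.13% in the KO libraries. Their summed level was 37844 ± 1586 CPM in WT and 41455 ± 1451 CPM in KO (mean ± SD, n = 3), a rise of 9.54%. The groups did not overlap, and the log2 ratio was 0.13. The 60S genes summed to 23453, 21705 and 21900 CPM in WT and to 24398, 25802 and 24601 CPM in KO, without overlap. The 40S genes summed to 16204, 15015 and 15253 CPM in WT and to 16084, 17321 and 16160 CPM in KO, and here WT replicate 1 lay above 2 of the KO libraries. The 60S sum over the 40S sum was 1.45, 1.45 and 1.44 in WT and 1.52, 1.49 and 1.52 in KO, a log2 difference of 0.07. The 40S sums include RPS12, the member with the largest fall, at a mean of 579 CPM in WT and 336 CPM in KO. Its fall lowers the 40S sum in KO and so adds to the ratio there. How much of the difference rests on this gene is not given here. CPM is a share of each library's counts, so these values say nothing of ribosomal protein mRNA per cell. Counts on the mitochondrial chromosome made up 7.42% to 8.85% of the WT libraries and 8.10% to 8.40% of the KO libraries.

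**Figure D2:**
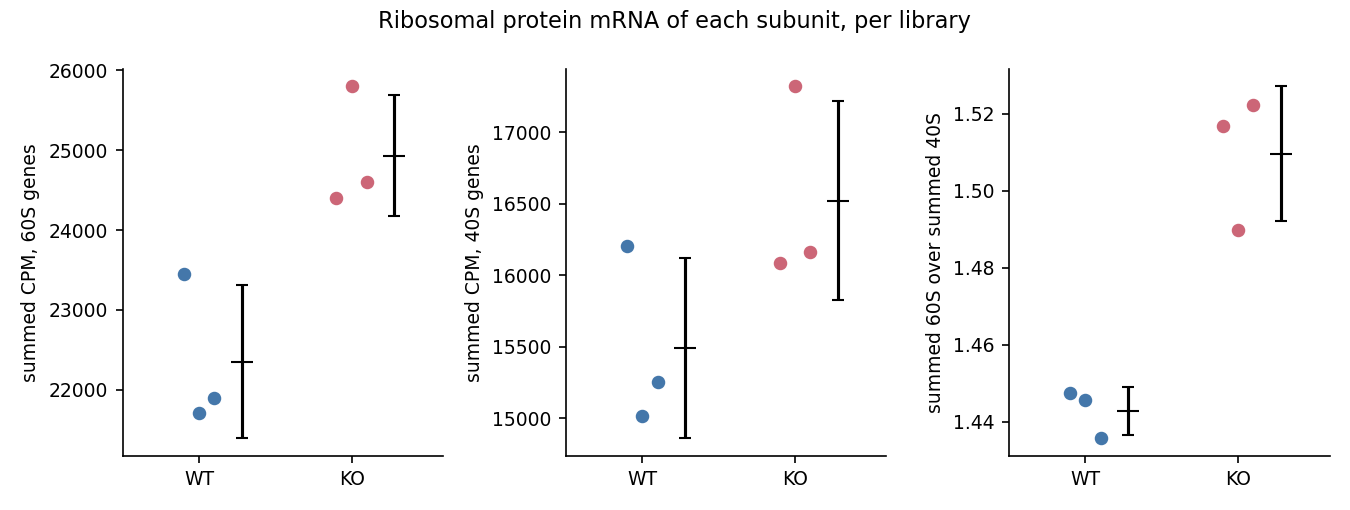
Summed CPM of the 60S genes (left) and 40S genes (middle) and their ratio (right) in each library, with the group mean and SD in black; the y axes do not start at 0. The 60S sums and the ratios of WT and KO do not overlap, whereas the 40S sums do.

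Large-subunit genes, which are 46 of the 77 members, accounted for most of the rises. Of the 46 genes of the 60S subunit 28 were called higher (60.9%) and 0 lower, with a median log2 fold change of 0.15. Of the 31 genes of the 40S subunit 10 were higher (32.3%) and 5 lower (16.1%), with a median of 0.04. Among all genes tested 31.9% were higher and 32.0% lower. The share of 40S genes called higher was therefore about that of all genes. With an unadjusted p, 1 gene of the 60S subunit was lower, and voom/limma and DESeq2 gave 0. The difference between the subunits was not tested, because the genes were grouped with these results known.

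The stalk of the large subunit, which recruits and activates the translation factors, was higher in all 4 of its genes. RPLP0, the protein that anchors the stalk, was measured at 967, 935 and 908 CPM in WT and at 1013, 1090 and 1051 CPM in KO (log2 fold change 0.17, SE 0.05, adjusted p = 0.0034 by edgeR). RPLP1, an acidic protein of the stalk, was at 898, 816 and 864 CPM in WT and at 935, 1020 and 979 CPM in KO. RPLP2, its partner, was at 488, 436 and 479 CPM in WT and at 512, 562 and 525 CPM in KO. Both rose by 0.19 on the log2 scale. RPL12, at the stalk base, had the smallest change of the 4, 0.13. In each of these genes the KO libraries lay above the WT libraries, although the lowest KO library of RPL12, at 480 CPM, was close to its highest WT library, at 478 CPM.

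RPL5 and RPL11, which bind the 5S rRNA and, when outside ribosomes, inhibit MDM2, were not called. RPL5 was at 791, 729 and 725 CPM in WT and 723, 750 and 730 CPM in KO (95% interval of the log2 fold change −0.13 to 0.07). RPL11 was at 744, 684 and 670 CPM in WT and 699, 706 and 687 CPM in KO (−0.10 to 0.09). WT and KO overlapped in both. Neither was called with an unadjusted p, with voom/limma or with DESeq2. Among the 9 genes whose proteins surround the exit of the peptide tunnel, 5 were higher (55.6%) and 0 were lower (median 0.16). In the remaining 31 genes of the 60S subunit 19 were higher (61.3%) and 0 were lower (median 0.14). The share higher among all genes tested was 31.9%.

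The largest rises came from both subunits. RPL37, a zinc-binding protein of the 60S subunit on chromosome 5 (chr5:40825262-40835222), was at 424, 401 and 424 CPM in WT and 585, 660 and 605 CPM in KO. Its log2 fold change of 0.57 (SE 0.05, adjusted p = 1.0e-11) was the largest rise of the 77. RPL29 on chromosome 3 (chr3:51993522-51995895), a 60S protein first known for heparin binding, was at 348, 323 and 307 CPM in WT and 443, 476 and 471 CPM in KO, a log2 fold change of 0.50. The KO libraries of both genes lay well clear of the WT libraries.

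RPS4X, the X-linked copy of an essential 40S protein (chrX:72255679-72277248), was at 1126, 1068 and 1035 CPM in WT and 1466, 1505 and 1496 CPM in KO (log2 fold change 0.47). RPS18, a protein of the 40S head encoded near the HLA class II genes (chr6:33272075-33276511), was at 908, 846 and 845 CPM in WT and 1115, 1287 and 1160 CPM in KO (0.45). In both the gap between the groups was wider than the range within either group. RPL32 and RPL14, 60S proteins encoded on chromosome 3, had log2 fold changes of 0.44 and 0.43. RPS14, a 40S protein whose single-copy loss is known from the 5q- syndrome, was at 558, 507 and 507 CPM in WT and 682, 739 and 666 CPM in KO (0.41). RPL17 ranked second at 0.56, but was counted at only 15.2 to 17.7 CPM in WT and 20.1 to 27.3 CPM in KO, and its count is uncertain for the reason given with the levels below.

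Each of the 5 genes called lower belongs to the 40S subunit. RPS12, a protein of the 40S head (chr6:132814569-132817564), was at 609, 544 and 584 CPM in WT and 329, 357 and 324 CPM in KO. The fall of 41.9% (log2 fold change −0.78, SE 0.05, adjusted p = 5.9e-15) was the largest change of any member on the log2 scale. RPS7 on chromosome 2, mutated in some families with Diamond-Blackfan anemia, was at 650, 645 and 658 CPM in WT and 518, 608 and 539 CPM in KO (log2 fold change −0.23). RPS16, a 40S head protein on chromosome 19, was at 729, 642 and 681 CPM in WT and 594, 612 and 569 CPM in KO (−0.21). KO lay below WT in all 3 genes, by more than the range within a group in RPS12 alone. RPS23, which lies at the decoding centre, fell by 0.14 on the log2 scale from 373 to 404 CPM in WT to 341 to 365 CPM in KO. Its call is lost without KO replicate 1 (adjusted p = 0.051) or without KO replicate 3 (adjusted p = 0.066). RPS15A was also called (−0.15, adjusted p = 0.035), although its groups overlapped.

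**Figure D3:**
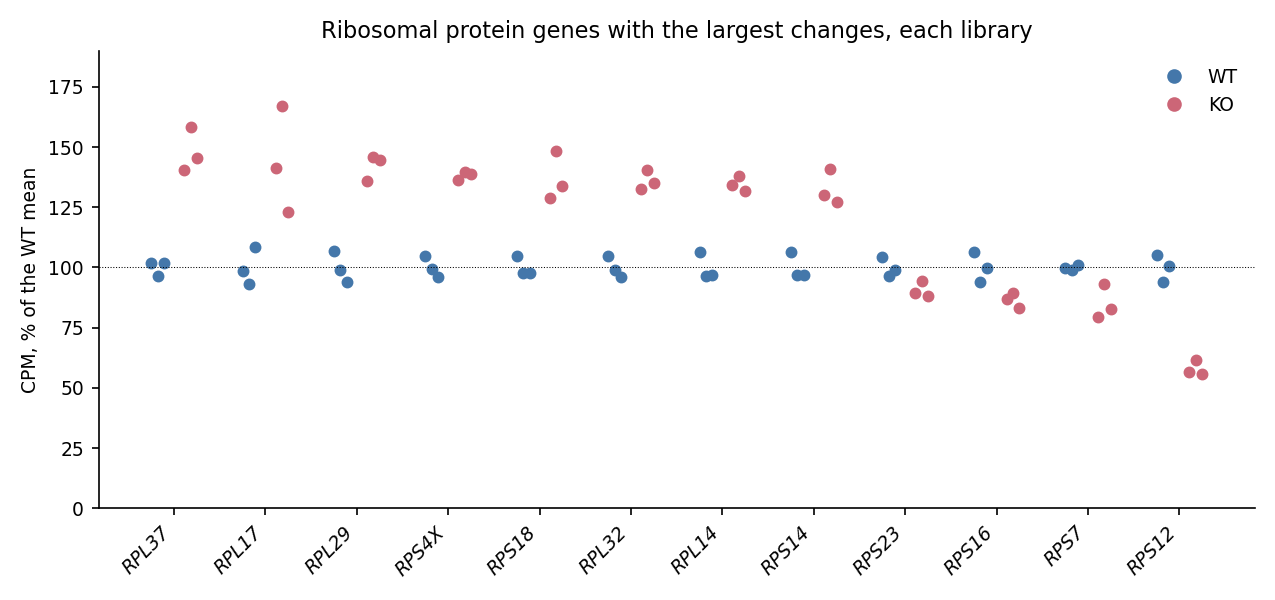
CPM of each library as a percentage of the WT mean (y axis) for the ribosomal protein genes with the largest rises and falls among those called with groups that do not overlap. Blue points are the 3 WT libraries and red points the 3 KO libraries. RPS12 stands apart, with its KO libraries at 329, 357 and 324 CPM against 544 to 609 CPM in WT.

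By position in the small subunit, the 14 genes of the head gave 4 higher and 2 lower (28.6% and 14.3%, median 0.04). The 17 genes of the body gave 6 higher and 3 lower (35.3% and 17.6%, median 0.04). The shares higher were near that of all genes tested, 31.9%, while 32.0% of all genes were lower. RPS6, the substrate of the S6 kinases, was not called, at 979 to 1058 CPM in WT and 1025 to 1104 CPM in KO. RPSA, a 40S protein also described as a laminin receptor, was higher (log2 fold change 0.23, adjusted p = 1.0e-04). RPS27A, made as a fusion with ubiquitin, was not called (−0.07, adjusted p = 0.26). Of the 18 members known from Diamond-Blackfan anemia, an inherited failure of red cell production, 8 were higher (44.4%), 1 was lower (5.56%) and 9 were not called. A further 2 ribosomal proteins with other symbols were read beside the members. RACK1, a signalling scaffold on the 40S head, rose from 998 to 1077 CPM in WT to 1289 to 1353 CPM in KO (log2 fold change 0.34). FAU, the fusion that yields eS30, was not called (−0.04).

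All 7 members on chromosome 3, RPL29, RPL32, RPL14, RPSA, RPL15, RPL35A and RPL24, were called higher, with log2 fold changes from 0.14 to 0.50 and a median of 0.23. The other 869 genes tested on chromosome 3 had a median of 0.25, and 58.3% of them were higher. On chromosome 5 RPL37 and RPS14 were higher and RPS23 lower, with a median of 0.41, and the other 740 genes had a median of 0.27 with 56.2% higher. In both cases the chromosome as a whole was shifted in the same direction, above the 31.9% of genes higher overall. The paper reports that the KO clone had more DNA and more chromosomes than the parental cells. Its karyotype of the clone lists gains of chromosomes 3 and 5 among other gains and losses. The part of copy number in these shifts was not tested. Without the 10 members of chromosomes 3 and 5, the median of the other 67 was 0.10.

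On no other chromosome with 3 or more members were all of them called higher. Chromosomes 1, 8, 9, 11, 12, 15, 17 and X had higher members and no lower one. Chromosome 19 held the most members, 12, of which 5 were higher, 1 was lower and 6 were not called (median 0.06 against −0.07 for the other genes there). On chromosome 8, RPL30, RPL8 and RPS20 were higher and RPL7 was not called, with a median of 0.19 against 0.02. Chromosome 17 gave 3 of 6 higher (median 0.14 against −0.04), and chromosome X gave RPS4X and RPL10 of 4 (0.18 against 0.03). On chromosome 4 none of RPL34, RPS3A and RPL9 was called, also with an unadjusted p, with voom/limma and with DESeq2 (median 0.04 against −0.00). Chromosomes 1 and 11 gave 1 of 5 higher each, with medians of 0.09 and 0.03. Chromosomes 9 and 12 gave 1 of 4 each, with medians of 0.02 and 0.05. Chromosome 2 gave 2 higher and RPS7 lower of 4 (0.03), chromosome 15 gave 2 of 3 higher (0.13), and chromosome 16 gave 2 higher and RPS15A lower of 3 (0.15). Medians this close to 0 can turn with 1 library: those of chromosomes 2, 4, 11 and 12 fell below 0 without WT replicate 2, and those of chromosomes 2, 9 and 11 without KO replicate 2.

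Chromosome 6 combined extremes, with RPS18 at 0.45 and RPS12 at −0.78. Where a chromosome held a single member, RPS24 on chromosome 10 was higher (0.39), as were RPS29 on chromosome 14 (0.22), RPL17 on chromosome 18 (0.56) and RPL3 on chromosome 22 (0.12, adjusted p = 0.042). RPL21 on chromosome 13 and RPS21 on chromosome 20 were not called (−0.00 and −0.03). No member lies on chromosomes 7 and 21. The RPL3 call is lost when any 1 library other than WT replicate 1 is left out (adjusted p from 0.060 to 0.20).

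Members were then set against their own neighbourhoods, taken as the 10 nearest tested protein-coding genes on each side that are not members, or fewer at a chromosome end (18 in all for RPS7, 16 for RPL8 and 11 for RPL35A). Across the 77 members, the log2 fold change of the member and the median of its neighbours had a Pearson r of 0.48 and a Spearman rho of 0.40. The members share libraries, and some share neighbours, so these are descriptions. Without the members of chromosomes 3 and 5 the r was 0.35 (n = 67). In 62 members the value lay above the median of the neighbours and in 15 below, with a median difference of 0.16. RPL29 had neighbours at 0.42 and RPL14 at 0.37, close to their own values. RPS18 (0.45, neighbours −0.06) and RPS4X (0.47, neighbours 0.09) lay well above theirs. RPS7 (−0.23, neighbours 0.05) and RPS23 (−0.14, neighbours 0.16) lay below.

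**Figure D4:**
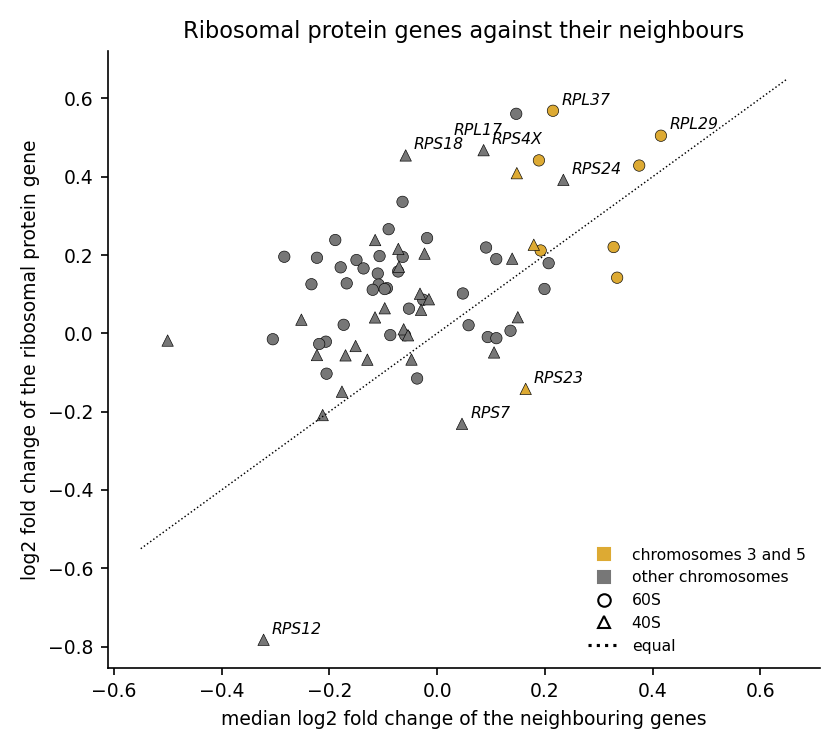
Log2 fold change of each ribosomal protein gene (y axis) against the median log2 fold change of its 10 nearest tested protein-coding genes on each side (x axis). Yellow marks chromosomes 3 and 5, circles 60S and triangles 40S, and the dotted line marks equal values. Of the 77 points 62 lie above the line.

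RPS12 lay in a stretch of lower genes, named here after their values were seen. The 6 tested genes on each side all had negative log2 fold changes. Among them, SNORD101, SNORD100 and SNORA33 lie within RPS12 itself, and ENPP1 was not called (adjusted p = 0.065 by edgeR). SLC18B1, the nearest protein-coding gene upstream on the chromosome, was at 37.1, 34.8 and 35.0 CPM in WT and 17.0, 14.5 and 14.9 CPM in KO (log2 fold change −1.20). STX7, a syntaxin of the endosome, was next, at 23, 23.4 and 22.1 CPM in WT and 11.9, 10.7 and 11.9 CPM in KO. Downstream, EYA4, a transcriptional coactivator, was at 46.5, 47.6 and 48.9 CPM in WT and had 0 counts in each KO library. TBPL1, further out, was at −0.69. Small nucleolar RNAs that lie within the span of RPS12 and guide rRNA modification were lower too: SNORD101 had 31, 31 and 8 counts in WT and 11, 20 and 9 in KO, and SNORA33 had 129, 93 and 56 in WT and 37, 56 and 23 in KO. Over the 10 protein-coding genes on each side the median was −0.32, nearer to 0 than RPS12 itself, and 7 of these 20 genes had positive values.

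**Figure D5:**
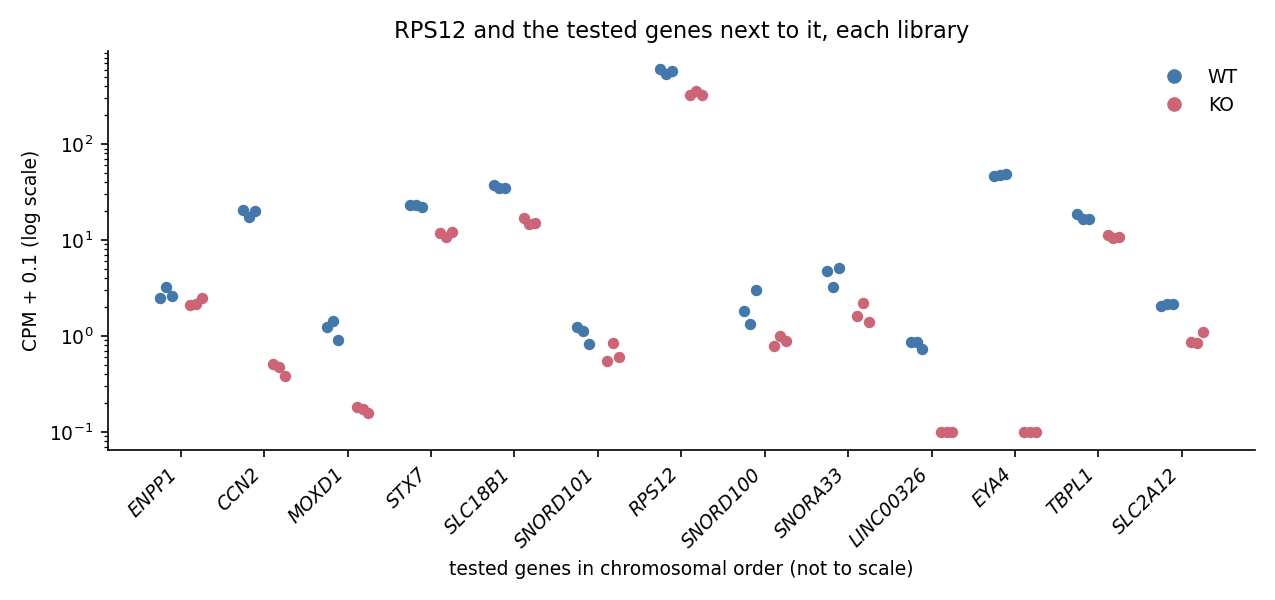
CPM plus 0.1 on a log axis for RPS12 and the 6 tested genes on each side of it, in chromosomal order and not to scale. Blue points are WT libraries and red points KO libraries. KO lies below WT in all of these genes except ENPP1 and SNORD101, where the groups overlap, and EYA4 and LINC00326 have 0 counts in KO.

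Each L-suffixed paralog is named after a single member, called its parent here. RPL10L, an intronless copy of RPL10 on chromosome 14 known for its use in the testis, showed the largest change of the 7 paralogs tested. It had 1, 0 and 1 counts in WT and 64, 72 and 50 counts in KO. The ratio of the pooled counts per scaled total was 91.9, with a 95% counting interval of 25.1 to 764. edgeR gave an adjusted p of 2.0e-14, past both of the study's thresholds. The fitted log2 fold change of RPL10L was 6.28, and it was 5.54 without WT replicate 2, the WT library with 0 counts, and 6.91 without WT replicate 3. RPL10L remained a small part of the pair: it made up 0.0132% ± 0.0144 of the reads of RPL10 and RPL10L in WT and 0.711% ± 0.0419 in KO (SD, n = 3). An exact permutation test of that share gave p = 0.1, the smallest that 3 against 3 libraries allow. RPL10 itself was at 329, 343 and 316 CPM in WT and 351, 401 and 380 CPM in KO (log2 fold change 0.20).

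The pair can be told apart by its letters. The coding sequences of RPL10 and RPL10L are both 642 bases long and differ at 69 positions (89.3% identity), and the longest stretch without a difference is 50 bases, shorter than the reads. None of the 75-base windows of the RPL10L coding sequence was found elsewhere in GRCh38. The stretch of 60 bases with the most differences, coding bases 557 to 616, is shown with the 13 differing bases in capitals (RPL10 at chrX:154400766-154400825, plus strand, and RPL10L at chr14:46651121-46651180, minus strand).
RPL10: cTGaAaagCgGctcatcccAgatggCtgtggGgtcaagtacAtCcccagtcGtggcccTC
RPL10L: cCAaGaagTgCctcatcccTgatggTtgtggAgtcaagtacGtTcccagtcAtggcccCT

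Among the other paralogs, RPL26L1 rose from 16.5 to 18.8 CPM in WT to 22.2 to 25 CPM in KO (log2 fold change 0.39, adjusted p = 3.7e-05), beside 0.20 for RPL26. RPL36AL fell by 0.19 on the log2 scale, from 119 to 128 CPM in WT to 101 to 113 CPM in KO. RPL22L1 (0.09, beside 0.11 for RPL22), RPL39L (−0.02, beside 0.16 for RPL39), RPL7L1 (0.00, beside 0.09 for RPL7) and RPS27L (0.01, beside 0.19 for RPS27) were not called. Of these parents RPS27 was called higher, and RPL22, RPL39 and RPL7 were not called. RPL22L1 was called higher without WT replicate 1 (adjusted p = 0.022) and when all libraries were thinned to the smallest total (adjusted p = 0.025). RPL3L had at most 4 counts in a library and was not tested. RPS27L made up 15.1% of its pair in WT and 13.5% in KO, and RPL26L1 10.5% and 12%. Neither share overlapped between groups (exact permutation p = 0.1 each, 0.267 for these and RPL10L after Benjamini-Hochberg adjustment over the 8 pairs). The shares of RPL22L1, RPL36AL, RPL39L, RPL7L1 and RPL3L overlapped.

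Levels of the ribosomal protein genes were ranked against each other per kilobase of coding sequence. In WT the highest were RPL37A at 2817, RPL38 at 2710, RPLP1 at 2512, RPL31 at 1954 and RPS18 at 1900 CPM per kilobase. The lowest were RPS10 at 19.1, RPL17 at 29.6 and RPL36A at 43.7 CPM per kilobase. Each of these 3 genes is overlapped by an annotated read-through gene, RPS10-NUDT3, RPL17-C18orf32 and RPL36A-HNRNPH2, and each read-through gene was listed with 0 counts in all 6 libraries. How reads that fall on both genes were counted is not given in the sources used here, so the levels of these 3 members are uncertain. RPL36A (−0.12) and RPS10 (0.06) were not called.

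Reads can also match pseudogenes. Of all 75-base windows in a member's coding sequence, a median of 27.0% also occurred elsewhere in the genome, with 12 members at 0 and 7 at 100%. The 51 members at or below 50% gave 30 higher and 4 lower (median log2 fold change 0.13), and the 26 above 50% gave 8 higher and 1 lower (0.07). Among all genes tested 31.9% were higher and 32.0% lower, so the share higher in those 26 was about that of all genes. Annotated pseudogenes of members numbered 1586, of which 131 passed the filter on low counts, with 19 higher and 10 lower. Both were smaller shares than among all genes tested. When pseudogene counts were added to their members, 38 were higher and 5 lower.

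Other genes of ribosome production did not follow the members' split. Among all protein-coding genes tested apart from the members, 32.4% were higher and 36.8% lower, and some of the lists lay near those shares. Of 54 factors of 60S assembly 12 were higher and 25 lower (22.2% and 46.3%, median −0.07). EBNA1BP2, a nucleolar assembly factor, fell from 356 to 362 CPM in WT to 110 to 115 CPM in KO (log2 fold change −1.68). Of 55 factors of 40S and 90S assembly 9 were higher and 22 lower (median −0.07). Of 14 chaperones and importers of ribosomal proteins 1 was higher and 5 were lower (7.14% and 35.7%, median −0.11). RNA polymerase I, which makes the large rRNAs, and its factors gave 5 higher and 8 lower of 21 (23.8% and 38.1%), with POLR1F at 1.08 and TAF1B at −1.16.

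Of 27 tested elongation factors and other TOP mRNAs, 9 were higher and 9 lower (33.3% each, median 0.03). EEF2, EEF1B2 and TPT1 rose by 0.43, 0.40 and 0.42 on the log2 scale, EEF1A1 was not called (0.07), and VIM, an intermediate filament gene with a TOP start, fell by 2.28. EEF1G was listed at 0 in every library. How its reads were counted is not given in the sources used here, so this does not show that the gene was silent. Regulators of TOP mRNAs gave 3 higher and 4 lower of 14, and snoRNA host genes without a protein 5 higher and 4 lower of 14. Mitochondrial ribosomal proteins gave 16 higher and 33 lower of 78 (median −0.06), and proteasome subunits, another set of co-produced complex members, 1 higher and 26 lower of 36 (median −0.24). All protein-coding genes tested apart from the members had a median of −0.03, with 32.4% higher and 36.8% lower.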

How the data were processed

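RNA from 3 A2780 WT and 3 A2780 CDK12 KO libraries was sequenced (stranded, single-ended, 75 bases), mapped to GRCh38 with STAR and counted with HTSeq by the authors, who deposited raw read counts per gene. Which annotation release they used, and how multiply matching reads were handled, is not given in the sources used here. Each of the 6 count columns was matched to its sample by title, and 0 columns of other samples were left out. Counts were fitted with edgeR 4.0.16 in R 4.3.3 (filterByExpr with a minimum count of 10, TMM scaling, quasi-likelihood test, two-sided, Benjamini-Hochberg over the 16198 genes kept). limma 3.58.1 (voom) and DESeq2 1.42.0 were alternatives. The scripts were tested on simulated data. The common biological coefficient of variation was 4.35%. Gene names, spans and coding sequences came from GENCODE 44 on GRCh38, in which 56321 of the listed genes were found. Coding windows of 75 bases were searched for exactly in GRCh38 on both strands. Start windows came from RefSeq (GRCh38.p14).

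Members and lists were chosen with earlier results of these data known, so no list was tested as a set. Genes were named by rule: the 8 largest rises and falls among members called with groups that do not overlap (4 falls qualified), the stalk and 5S genes, RPS6, RPSA and RPS27A, FAU and RACK1, paralogs with their parents, the 5 highest and 3 lowest levels per kilobase, single members of a chromosome, and list genes past both thresholds. Depth limits rare transcripts: counting intervals cover counting error only. Some items covered by these rules are not reported here.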

Additional observations from a re-analysis of the deposited data

How the results depend on the processing

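The counts of members ran from 32 to 44 higher and from 3 to 7 lower over other tools, scalings, filters, thinning and leaving out 1 library, and 0 passed both thresholds in each. Fewer than the 5 lower members, 3, were called at an adjusted p under 0.01 (where 32 were higher) and without KO replicate 3; leaving out 1 library gave 3 to 7. The members with at most 50% of their windows elsewhere, an alternative chosen after seeing the data, gave 30 higher and 4 lower. The members' median ran from 0.08 to 0.16. The spread between the highest and lowest chromosome median was 0.39, and 0.36 to 0.42 when 1 library was left out. The r between members and neighbours was 0.44 when at least 10 counts were asked in every library, 0.56 with 5 genes on each side, 0.37 with 20, and 0.40 to 0.49 when 1 library was left out. The cause of these shifts was not tested. Among the single genes named, directions turned only in ones that were not called. With upper-quartile scaling RPL11 was at 0.022 and RPL39L at 0.0035, with at least 10 counts in every library RPL11 was at 0.018, and thinned RPL11 was at 0.0087. Leaving out 1 library gave −0.038 to 0.037 for RPL11, −0.069 to 0.031 for RPL39L, −0.054 to 0.0098 for RPL5, −0.036 to 0.027 for RPL7L1, −0.078 to 0.017 for FAU, −0.027 to 0.057 for RPS27L and −0.084 to 0.15 for RPS10. RPL37A lost its call without WT replicate 2, WT replicate 3 or KO replicate 2. Other scalings moved the median of all genes by at most 0.03. No paired analysis was possible because the WT and KO samples are numbered in 1 series and share no replicate number. In the shallowest library 3 counts correspond to 0.270 CPM, which limits RPL10L and RPL3L but no member.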
